A study of Mus musculus with 30 samples.

Results

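The libraries described here hold total RNA of the small bowel *muscularis externa* (*ME*), the muscle coat of the gut wall, taken from mice 3 h after intestinal manipulation (IM3h) or from naïve mice. They were chosen by their labels alone: 3 naïve and 3 IM3h libraries, 6 of the 30 samples of the series, with all 24601 genes of the deposited table. Both groups carry the same label for the mouse line, B6.Cg-Tg73.12Mvs/J(Gfap-cre) crossed with B6N.129 Rpl22tm1.1Psam/J, in which a Cre recombinase driven by *Gfap* regulatory sequence tags a ribosomal protein of the cells that express it. The tag plays no part in these libraries, because they are the input, a share of the whole lysate set aside before precipitation. The text of the study describes another line for its *RiboTag* experiments, with an inducible Cre driven by *Sox10* and tamoxifen injections, so which line and treatment these mice had is not certain. Mice were male and 10 to 12 weeks old. IM3h mice received tramadol and isoflurane, the abdomen was opened, and the small bowel was rolled with moist cotton swabs. What naïve mice received, anaesthesia or drugs included, is not given in the sources used here, and the drugs, the incision and the touching of the bowel cannot be told apart in this comparison. The labels do not say that each library is a separate mouse, while the study describes its sequenced samples as mice. The p-values measure the spread between these libraries only.

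Postoperative ileus is a halt of gut movement after abdominal surgery. Light trauma to the bowel starts an inflammation in the muscle coat in which resident macrophages, glia, fibroblasts and muscle cells release cytokines and chemokines, and blood leukocytes then enter the muscle and slow its contractions. Genes that answer an external signal do so in an order: immediate early genes, many of which code for transcription factors, are switched on by proteins already in the cell, and delayed genes, among them cytokines and inhibitors of the same signals, follow them. The comparison asks which genes of the whole tissue differed 3 h after the injury.

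Total counts ranged from 6603170 to 9862170 in naïve libraries and from 8935917 to 9937045 in IM3h libraries. A transcript inside an rRNA gene, AY036118, held 16.1% to 33.5% of the counts in naïve libraries and 24.1% to 25.1% at IM3h. Levels are given as CPM, a gene's count relative to its library's total, after TMM scaling, a normalization that sets the bulk of genes equal between libraries. The tissue label was met by the smooth muscle markers: the summed level of *Acta2*, *Actg2*, *Myh11*, *Tagln*, *Cnn1*, *Des* and *Smtn* was 16800 to 18500 CPM in naïve and 13400 to 15400 CPM in IM3h libraries. On the first principal component of the 6 libraries, which held 62.8% of the variance, naïve libraries lay between -62.38 and -53.31 and IM3h libraries between 52.95 and 64.02. The second component held 12.3%.

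Of the 15333 genes with enough counts for a test, 2962 (19.3%) were called higher at IM3h and 2058 (13.4%) were called lower, at an adjusted p under 0.05 (edgeR quasi-likelihood test, two-sided, Benjamini-Hochberg adjustment over all genes tested). A gene past this threshold is called higher or lower below, and "rose" and "fell" are used of such genes only. Large changes were mostly rises: 202 genes rose and 32 fell by more than 8-fold, and 48 rose and 3 fell by more than 32-fold. The lowest IM3h library exceeded the highest naïve library for 25.3% of the genes tested, and the reverse held for 22.7%. At an unadjusted p under 0.05 with a change over 2-fold, the rule of the study, 11.3% were higher and 7.14% lower. Over all genes tested, the log2 fold change had a median of 0.00 with TMM scaling, -0.15 without scaling for library size, -0.26 with library totals alone and -0.41 with scaling by *Actb*, *Hsp90ab1* and *Rplp1*. Among all genes called, 59.0% were higher, against 58.5%, 33.9% and 22.7% with these other scalings, so the balance of directions rests on the scaling. *Hsp90ab1* itself rose by 1.05 on the log2 scale under TMM scaling. No gene called higher with TMM was called lower with any of these scalings, or the reverse.

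**Figure D1:**
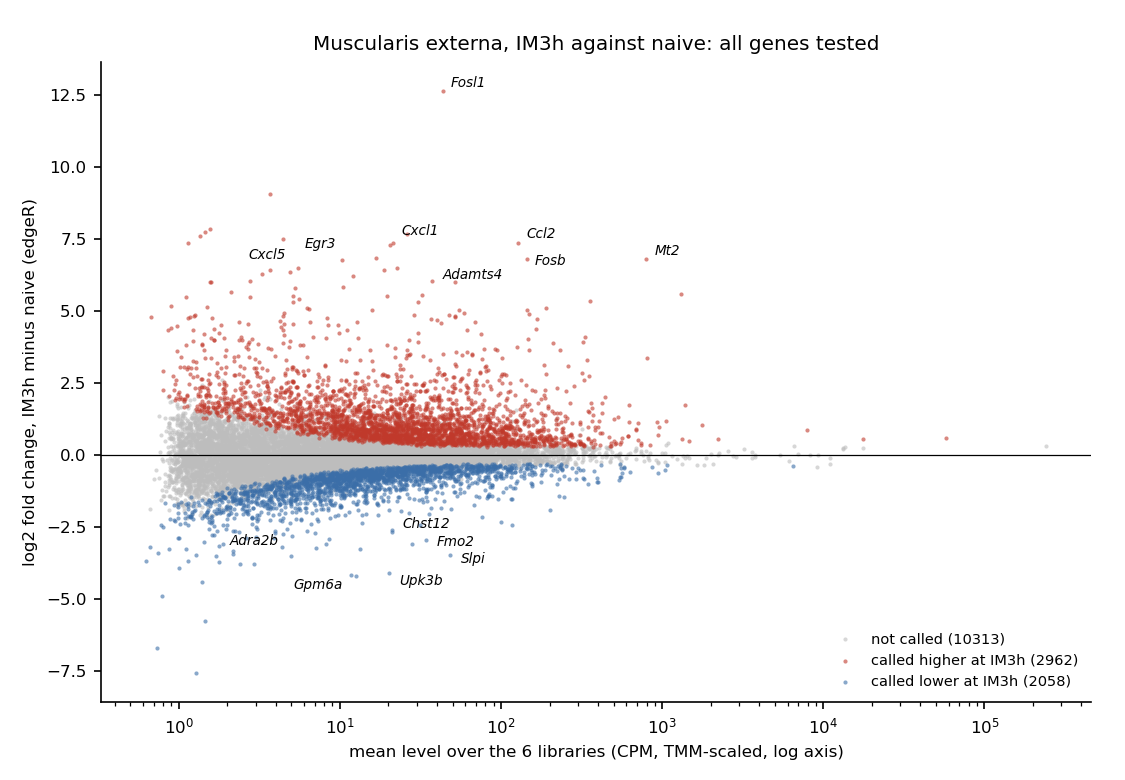
Log2 fold change at IM3h against the mean level of each of the 15333 genes tested, with genes called higher in red, genes called lower in blue and the others in grey. Large rises outnumber large falls: 202 genes rose and 32 fell by more than 8-fold.

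The 12 largest rises, taken from called genes with a mean of at least 5 CPM whose libraries do not overlap between the groups, belonged to *Fosl1*, *Ccl2*, *Cxcl1*, *Itpkc*, *Ptx3*, *Mt2*, *Fosb*, *Egr3*, *Cxcl5*, *Cxcl2*, *Arc* and *Adamts4*. *Fosl1*, on chromosome 19, 5447547 to 5455946 (GRCm38), codes for the AP-1 subunit FRA-1. It had no count in any naïve library and stood at 82.5, 86.6 and 91.2 CPM in the IM3h libraries, at least 256-fold higher than the 3 counts per library that a count of 0 allows. *Ccl2* (chromosome 11, 82035571 to 82037453), the chemokine that draws monocytes, measured 0.528, 0.485 and 3.15 CPM in naïve libraries and 259, 342 and 157 CPM at IM3h. Its log2 fold change was 7.37 with a standard error of 0.51 (edgeR adjusted p = 4.71e-06). Naïve library 3 stood highest of its group for *Ccl2*, and without it the log2 fold change was 8.85.

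**Figure D2:**
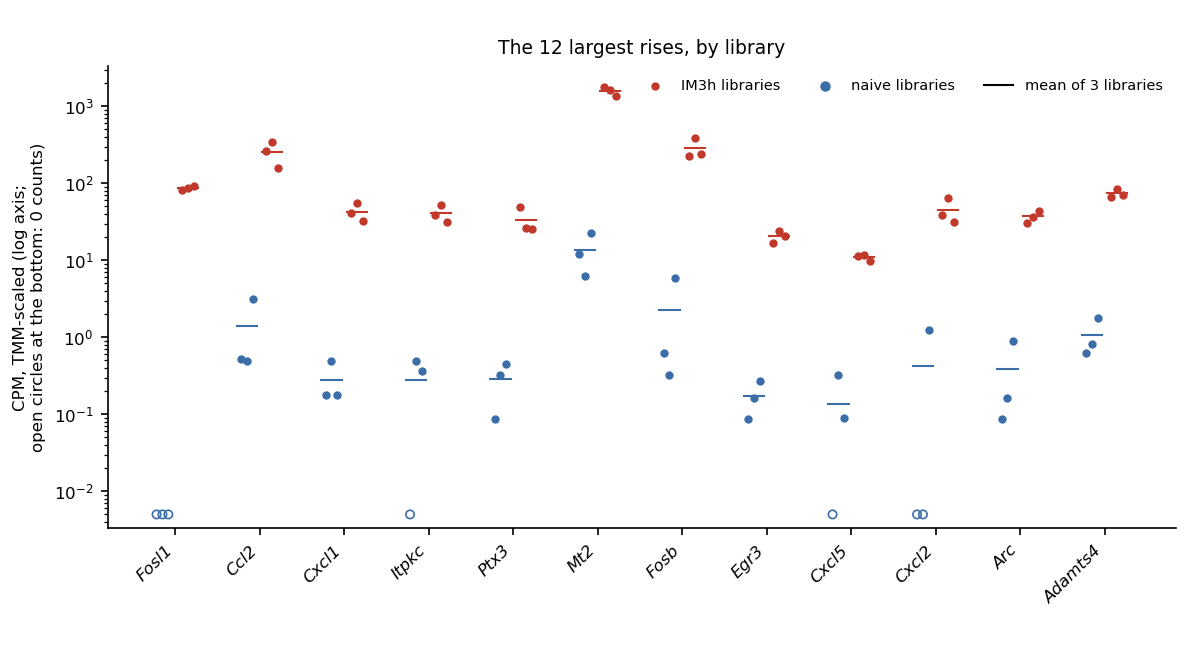
Level of the 12 genes with the largest rises in each of the 3 naïve (blue) and 3 IM3h (red) libraries, in CPM on a log axis, with the group mean as a bar and open circles for libraries with 0 counts. The genes were taken from those whose groups do not overlap. Naïve levels are lowest for *Fosl1*, at 0 in all 3 libraries, and IM3h levels are highest for *Mt2*, at 1357 CPM and above.

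AP-1 is a family of dimers of FOS, JUN, ATF and MAF proteins, and 12 of its 13 genes on the list rose, with a median log2 fold change of 2.90. *Fosb* (chromosome 7, 19302696 to 19310051) went from 0.617, 0.323 and 5.94 CPM to 227, 389.8 and 243 CPM, with naïve library 3 the highest of its group, and its log2 fold change was 6.82, or 9.04 without that library. *Fos* rose from 3.56 ± 1.97 to 115 ± 49.4 CPM (SD, n = 3), and *Junb*, which often pairs with it, from 12.1 ± 2.82 to 321 ± 50.9 CPM. *Atf3* and *Maff*, AP-1 partners that are made under stress, had log2 fold changes of 4.85 and 5.02. *Jun* (2.1) and *Jund* (0.67), which naïve tissue already expressed at 69.7 and 200.4 CPM, rose less. *Batf3* was not called (log2 fold change 1.39, edgeR adjusted p = 0.0759).

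EGR, NR4A and IER genes are the other classic immediate early genes, and 18 of 21 rose, with a median of 3.11. *Egr3* measured 0.0881, 0.162 and 0.27 CPM in naïve libraries and 16.6, 24.2 and 20.5 CPM at IM3h, a log2 fold change of 6.76 with a standard error of 0.35 (edgeR adjusted p = 8.57e-07). *Arc* (chromosome 15, 74669083 to 74672570), known from active neurons, moved from 0.0881, 0.162 and 0.900 CPM to 30.7, 36.6 and 43.9 CPM, a log2 fold change of 6.43, or 8.11 without naïve library 3. *Egr1* went from 15 ± 5.65 to 317 ± 75.7 CPM. The orphan nuclear receptor genes *Nr4a1*, *Nr4a2* and *Nr4a3* rose by 3.11, 3.3 and 2.45 on the log2 scale, the last by 3.52 without naïve library 3. Targets of the serum response pathway were mixed: *Ccn1* rose by 3.65, while *Ccn2* (log2 fold change -0.16) and *Srf* itself (-0.14) were not called. Without IM3h library 2 *Srf* was called lower, at -1.16. *Npas4*, a factor specific to neuronal activity, was not called either, at 1.58, 6.3 and 4.14 CPM in naïve and 1.54, 2.13 and 1.38 CPM in IM3h libraries.

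Transcription factors of the next wave rose in 21 of 23 cases, with a median of 1.90. *Cebpd* (chromosome 16, 15887286 to 15891031), a driver of acute phase genes, measured 15.7, 11.2 and 24.4 CPM in naïve and 672, 737 and 691 CPM in IM3h libraries. *Cebpb* went from 7.72 ± 0.75 to 143 ± 69.2 CPM and *Myc* from 1.35 ± 0.819 to 24.6 ± 12.2 CPM. *Runx1* (3.11), *Irf1* (2.5), *Klf4* (2.43), *Klf6* (2.41) and *Stat3* (1.81) rose as well. *Klf15*, a factor of fasting metabolism and resting muscle, fell by 1.69, and *Cebpa* (log2 fold change -0.23) was not called.

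Among interleukins and growth factors of leukocytes, 8 of 13 genes with enough counts rose and 1 fell, with a median of 1.93. *Il6* (chromosome 5, 30013114 to 30019981), the main inducer of the acute phase, had 2 counts over all naïve libraries and 143 at IM3h, a ratio of 79 (95% counting interval 21.5 to 658) after scaling. *Lif*, a cytokine of the same family, had 2 and 190 counts, a ratio of 105 (95% counting interval 28.6 to 873). The rise of *Tnf* rested on 2 and 48 counts and had a ratio of 26.5 (95% counting interval 6.95 to 225). *Il1b* measured 0.352, 0.485 and 0.27 CPM in naïve and 4.85, 7.72 and 13.5 CPM in IM3h libraries, and *Il1rn*, the antagonist of its receptor, 0.44, 0 and 0.63 CPM against 8.16, 9.63 and 12 CPM. The agonist and its antagonist thus rose together, with log2 fold changes of 4.56 and 4.56. *Il11* (3.88), *Csf1* (1.93) and *Clcf1* (0.92) rose too, *Clcf1* not without naïve library 1 or IM3h library 2. *Il18*, which is stored in resting cells, fell by 1.38, a call lost without naïve library 1 or IM3h library 1 or 2. *Il33* (log2 fold change 0.19), *Il15* (-0.95) and *Il16* (-1.02) were not called. *Il10*, *Osm* and *Csf3* had too few counts for the test, with 0, 2 and 0 counts in naïve and 11, 11 and 61 counts in IM3h libraries.

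Receptors for these cytokines were tested too, with 17 of 20 genes called higher and 1 lower (median 1.66). *Tnfrsf12a*, the receptor of TWEAK, rose from 3.22 ± 1.96 to 81.2 ± 11.7 CPM, and *Osmr*, the receptor chain for oncostatin M, from 4.61 ± 0.439 to 47 ± 4.43 CPM. *Il1r1*, the signaling receptor of interleukin 1, rose by 2.43, and the decoy receptor *Il1r2*, a gene of neutrophils, by 4.37. *Il6ra* and *Il6st*, which together bind interleukin 6, rose by 1.43 and 0.63. *Il11ra1* (log2 fold change -0.1) was not called, and *Csf1r*, a macrophage receptor, fell by 0.4, a call lost without naïve library 1 or 2 or IM3h library 1 or 3.

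CC chemokines, which mainly draw monocytes and T cells, included 9 called higher of 12 tested, with a median of 2.55. *Ccl7* (chromosome 11, 82045712 to 82047525) stood at 0.44, 0.646 and 3.06 CPM in naïve and 70.6, 49.1 and 60 CPM in IM3h libraries, a log2 fold change of 5.33, or 6.76 without naïve library 3. *Ccl3* and *Ccl4*, made by activated macrophages, rose by 4.23 and 4.46 on the log2 scale, or 5.13 for *Ccl4* without naïve library 2. *Ccl3* rested on 4, 0 and 1 counts in the naïve libraries, and the fitted value was 5.56 without the library that holds 4 of them. *Ccl17* had 1 count in the naïve libraries and 80 at IM3h, a ratio of 88.4 (95% counting interval 15.4 to 3530). *Ccl11*, the eotaxin gene, rose by 2.5. *Ccl5* (log2 fold change 0.89) and *Ccl8* (-0.58) were not called.

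Of the CXC chemokines that act on neutrophils, *Cxcl1*, *Cxcl2* and *Cxcl5* rose from near 0, while *Cxcl3*, with 0 counts in all naïve libraries and 7 at IM3h, had too few for the test. *Cxcl1* (chromosome 5, 90891241 to 90893115) measured 0.176, 0.485 and 0.18 CPM in naïve and 41.1, 54.6 and 32.2 CPM in IM3h libraries, a log2 fold change of 7.36 with a standard error of 0.35 (edgeR adjusted p = 5.05e-07). *Cxcl2* had no count in naïve libraries 1 and 2, 1.26 CPM in the third and 39.3, 64 and 31.5 CPM at IM3h, so the size of its fold rests on naïve library 3 alone. *Cxcl5* had 3 counts in all naïve libraries against 285 at IM3h, a ratio of 105 (95% counting interval 35.5 to 512). The interferon-induced *Cxcl10* and *Cxcl9*, which act on T cells, rose by 4.35 and 3.02. In contrast, the constitutive chemokines *Cxcl12* and *Cxcl14* fell by 0.54 and 1.47, the former not called without naïve library 3 or IM3h library 1 and the latter from 44.1, 60.3 and 47 CPM to 19.1, 17.4 and 17.9 CPM with no overlap. Of the 9 CXC and CX3C genes tested, 6 rose and 2 fell.

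Inhibitors that NF-kappaB, STAT and MAP kinase signals induce against themselves rose in 22 of 27 cases, none fell, and their median was 1.72. *Socs3* (chromosome 11, 117966079 to 117970047), which blocks the receptor chain of interleukin 6, measured 7.66, 4.85 and 12.8 CPM in naïve and 221, 320.4 and 307 CPM in IM3h libraries. *Nfkbia* (chromosome 12, 55489410 to 55492647), the gene of IκBα, went from 165, 131 and 132 CPM to 1275, 1944 and 1172 CPM. *Bcl3*, *Tnfaip3* and *Nfkbid*, further regulators of NF-kappaB, rose by 4.87, 4.52 and 3.65. The MAP kinase phosphatases *Dusp1*, *Dusp2* and *Dusp5* rose by 3.36, 3.94 and 3.46, and *Dusp14* (log2 fold change -0.55) was not called. *Errfi1*, an inhibitor of the EGF receptor, rose by 4.34. Factors that destroy cytokine mRNA followed, with 7 of 10 called higher, none lower and a median of 0.92: *Zfp36* (tristetraprolin) rose from 15.7 ± 1.86 to 108 ± 35.2 CPM and *Zc3h12a* (regnase-1) from 2.72 ± 1.32 to 11.2 ± 0.754 CPM.

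**Figure D3:**
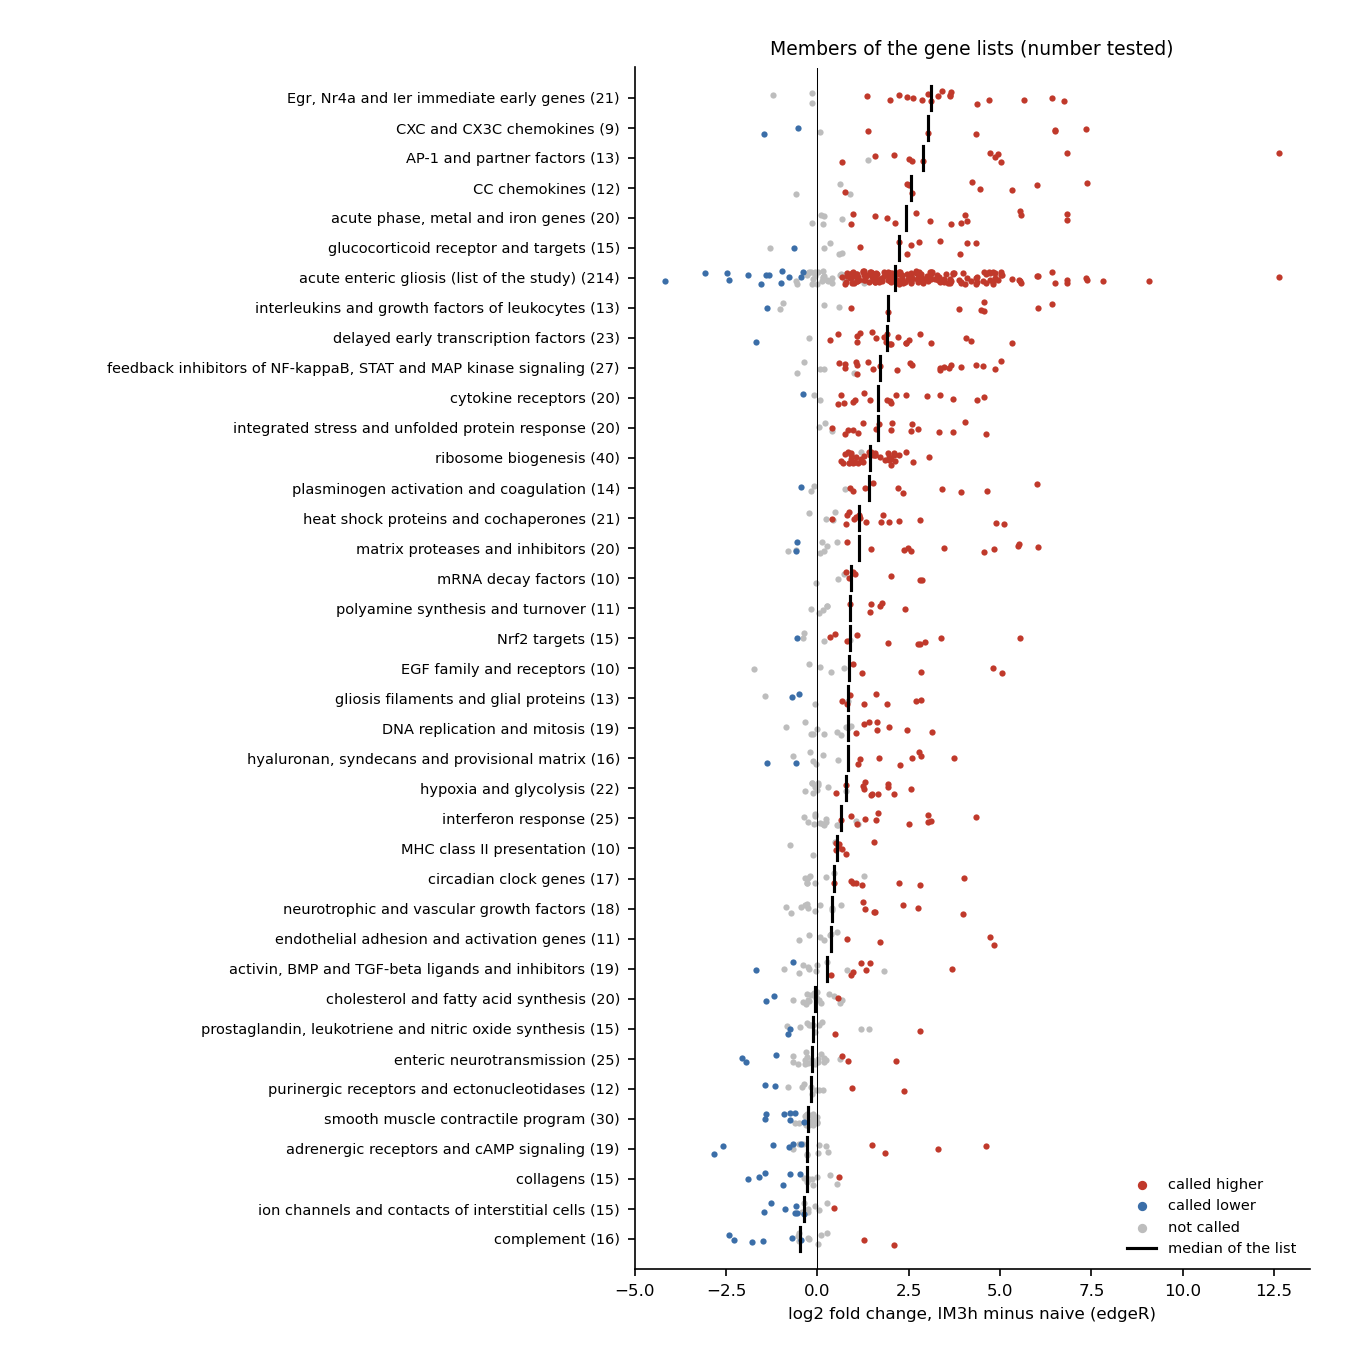
Log2 fold change at IM3h of every tested member of the 39 gene lists, 1 row a list with the number tested in parentheses, sorted by the median (black bar). Members called higher are red, called lower blue and not called grey. The lists of immediate early genes and chemokines have the highest medians, and complement the lowest (-0.47).

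Promoters of 5 of these genes are shown as examples of genes that rose and hold the letters of a known response element near their start. Sequences are from RefSeq on GRCm38.p6, from 250 bases before to 50 bases from the annotated start, in the direction of the gene. Capitals mark matches on either strand to the cAMP response element (CRE, letters TGACGTCA), the AP-1 site (letters TGANTCA), the CArG box of SRF or the NF-kappaB motif.
Cxcl1, chr5:90890995-90891294, plus strand: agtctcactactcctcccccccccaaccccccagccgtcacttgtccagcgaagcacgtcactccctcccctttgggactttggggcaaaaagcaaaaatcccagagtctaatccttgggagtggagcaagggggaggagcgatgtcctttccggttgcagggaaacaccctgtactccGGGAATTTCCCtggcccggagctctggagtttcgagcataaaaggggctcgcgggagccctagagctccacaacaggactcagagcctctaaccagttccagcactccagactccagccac
Il6, chr5:30012864-30013163, plus strand: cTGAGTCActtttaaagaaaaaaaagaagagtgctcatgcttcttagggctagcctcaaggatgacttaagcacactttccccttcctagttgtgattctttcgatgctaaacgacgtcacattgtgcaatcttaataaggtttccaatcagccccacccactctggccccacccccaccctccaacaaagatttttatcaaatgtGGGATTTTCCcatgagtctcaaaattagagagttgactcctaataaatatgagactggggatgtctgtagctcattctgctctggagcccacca
Mmp3, chr9:7445572-7445871, plus strand: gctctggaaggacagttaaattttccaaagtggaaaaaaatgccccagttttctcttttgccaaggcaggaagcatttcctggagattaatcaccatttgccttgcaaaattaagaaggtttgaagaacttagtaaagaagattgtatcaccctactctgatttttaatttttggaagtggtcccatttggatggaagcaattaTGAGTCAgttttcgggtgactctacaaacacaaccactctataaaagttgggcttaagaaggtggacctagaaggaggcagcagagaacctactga
Areg, chr5:91139349-91139648, plus strand: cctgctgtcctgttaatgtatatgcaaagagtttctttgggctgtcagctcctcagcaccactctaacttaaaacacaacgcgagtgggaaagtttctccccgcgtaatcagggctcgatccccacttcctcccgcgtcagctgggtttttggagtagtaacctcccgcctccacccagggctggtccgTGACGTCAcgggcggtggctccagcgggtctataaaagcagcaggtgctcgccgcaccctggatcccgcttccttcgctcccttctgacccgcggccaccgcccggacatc
Dusp5, chr19:53528895-53529194, plus strand: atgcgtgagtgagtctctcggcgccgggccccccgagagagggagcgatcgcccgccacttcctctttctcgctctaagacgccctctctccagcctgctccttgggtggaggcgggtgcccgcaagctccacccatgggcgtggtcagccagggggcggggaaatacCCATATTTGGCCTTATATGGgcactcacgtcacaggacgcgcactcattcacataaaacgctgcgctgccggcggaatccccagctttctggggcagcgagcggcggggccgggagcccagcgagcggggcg
In *Cxcl1* the capitals are a pair of overlapping NF-kappaB matches that begin 71 and 70 bases before the start. *Il6* holds an NF-kappaB match 44 bases and an AP-1 match 249 bases before it, and *Mmp3* an AP-1 match at 46 bases. The CRE of *Areg* begins at 61 bases, and *Dusp5* holds CArG boxes at 82 and 72 bases.

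Over all genes tested, 10639 had such a promoter in the table used, with 1.28 promoters a gene. NF-kappaB letters were found for 6.42% of them, for 8.48% of genes called higher and for 17.3% of the 139 genes that rose more than 8-fold. AP-1 letters were found for 6.46%, 7.82% and 16.5%, and CRE letters for 3.52%, 4.15% and 7.19%. Among genes called lower the shares were 5.57% for NF-kappaB, 4.78% for AP-1 and 2.36% for CRE. The CArG box differed little between these groups, from 1.6% to 2.16%. These are counts of letters, with no test, and the groups also differed in base composition: the median GC content of the promoters was 60.7% over all genes and 58.3% for those that rose more than 8-fold. Genes that rose more than 8-fold were short, with a median span of 8.05 kb and 4 exons in GENCODE vM21, against 20.2 kb and 8 exons for all genes tested. All genes that rose had a median span of 21.9 kb and all that fell 25.5 kb, with 8 exons each. Genes that fell more than 4-fold were also short, at 16.5 kb and 5 exons.

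Genes of the acute phase and of metal and iron handling rose in 15 of 20 cases and fell in none, with a median of 2.41. The metallothionein genes *Mt1* and *Mt2*, neighbours on chromosome 8 that bind zinc and copper, reached 2853, 2563 and 2254 CPM and 1760, 1622 and 1357 CPM from 50.7, 41.4 and 67.1 CPM and 12.2, 6.3 and 22.3 CPM. *Ptx3* (chromosome 3, 66219910 to 66225805), a soluble pattern receptor, went from 0.0881, 0.323 and 0.45 CPM to 48.5, 26.2 and 25.4 CPM. *Lcn2*, which binds bacterial iron carriers, rose from 0.768 ± 0.179 to 12.8 ± 4.77 CPM, and *Serpina3n*, a protease inhibitor, from 3.69 ± 0.775 to 57.1 ± 9.92 CPM. *Tfrc*, for iron uptake, rose by 1.9, *Saa3* by 3.08 and *Hp* by 0.92, the last not called without any 1 naïve library or IM3h library 1.

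Stress responses inside the cell came next. Of the heat shock proteins, 17 of 21 rose and none fell (median 1.14). *Hspa1a* and *Hspa1b*, near-identical neighbours whose reads cannot be assigned with certainty, both lay under 16 CPM in every naïve library and above 150 CPM in every IM3h library. *Dnajb1* rose by 2.81, *Bag3* by 2.22 and *Hsp90aa1* by 1.74, while *Hspb6*, a small heat shock protein of muscle, was not called (log2 fold change -0.24). The integrated stress and unfolded protein responses had 17 of 20 genes called higher and none lower (median 1.65). *Gadd45b* rose by 4.61, *Trib1* by 4.03 and *Ppp1r15a* by 3.7. *Atf4*, the main factor of the integrated stress response, went from 92.1 ± 11.4 to 614 ± 44.4 CPM, and *Hspa5*, the chaperone BiP of the endoplasmic reticulum, from 177 ± 25.4 to 711 ± 21.8 CPM. Targets of Nrf2, the factor of the oxidative stress response, had 10 of 15 called higher and 1 lower (median 0.88). Heme oxygenase *Hmox1* (chromosome 8, 75093621 to 75100589) measured 1.23, 0.808 and 1.8 CPM in naïve and 58.8, 75.8 and 56 CPM in IM3h libraries. *Gclc*, *Txnrd1* and *Srxn1* rose by 2.95, 2.82 and 2.76, and catalase *Cat* fell by 0.57.

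Genes of ribosome biogenesis rose almost without exception: all 40 genes could be tested, all 40 had every IM3h library above every naïve library, and 38 rose, with a median of 1.44. *Gnl3* (nucleostemin) rose from 17 ± 4.04 to 142 ± 13 CPM and *Nop58*, of the small nucleolar particles that modify rRNA, from 37.3 ± 5.34 to 228 ± 29.2 CPM. *Ddx21*, an RNA helicase of the nucleolus, went from 67.5, 79.2 and 71.3 CPM to 288, 255 and 301 CPM. *Ncl* rose by 1.24, *Npm1* by 0.92 and *Polr1a*, the largest subunit of RNA polymerase I, by 1.2. Polyamine genes rose in 6 of 11 cases (median 0.89), with *Odc1*, the first enzyme of the pathway, at a log2 fold change of 2.39 and *Sat1*, which breaks polyamines down, at 1.71. Of the hypoxia and glycolysis genes, 12 of 22 rose (median 0.78), among them *Pfkfb3* (2.57), *Hk2* (1.94), *Slc2a1* (1.92), *Vegfa* (1.25) and *Hif1a* itself (1.27). Genes of DNA replication and mitosis rose in 8 of 19 cases (median 0.83). They included genes of entry into S phase, *Cdt1* (3.13), *Ccne1* (2.45), *Ccnd1* (1.28) and *Pcna* (1.41), and the mitotic genes *Aurka* (1.96) and *Birc5* (1.63). The replication genes *Mcm2*, *Mcm3*, *Mcm6* and *Mcm7* of the list were called in none of the alternative fits described below. Their log2 fold changes there were -0.74 to -0.24, 0.51 to 1.19, -0.23 to 0.25 and 0.12 to 0.67. The call of *Aurka* was lost without naïve library 1 or 3 or IM3h library 2 or 3. *Mki67* rose to 5.85, 5.37 and 5.79 CPM from 3.08, 1.78 and 3.15 CPM, a call lost when any 1 of the 6 libraries was left out, and the mitotic genes *Ccnb1*, *Bub1* and *Plk1* had too few counts for the test.

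Vessel wall, coagulation and matrix genes formed a further group. Of 11 endothelial adhesion genes, 4 rose (median 0.38, or -0.03 with scaling by *Actb*, *Hsp90ab1* and *Rplp1*): *Selp*, for P-selectin, measured 0, 0.646 and 0.36 CPM in naïve and 6.73, 11 and 7.8 CPM in IM3h libraries, and *Icam1* 2.38, 1.94 and 3.42 CPM against 62.9, 94.1 and 55.5 CPM. *Angpt2* and *Vcam1* rose by 1.7 and 0.8, and *Vwf* (log2 fold change -0.52) was not called. *Angpt2* lost its call without naïve library 1 or 3 or IM3h library 2. In the plasminogen and coagulation list, 10 of 14 rose and 1 fell (median 1.42). *Plaur* and *Plau*, the urokinase receptor and urokinase, rose by 4.65 and 2.35, and *Thbs1* went from 39.8 ± 4.36 to 603 ± 19.4 CPM. Tissue factor *F3* (log2 fold change 0.76) was not called and its inhibitor *Tfpi* fell by 0.44, a call lost without naïve library 1.

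Matrix proteases and their inhibitors had 11 of 20 called higher and 2 lower (median 1.13). *Adamts4* (chromosome 1, 171250421 to 171260637), which cleaves proteoglycans, measured 0.617, 0.808 and 1.8 CPM in naïve and 67.2, 83.6 and 70.7 CPM in IM3h libraries. *Mmp3* went from 1.23, 0.323 and 0.72 CPM to 56, 33.4 and 26.8 CPM, *Timp1* rose by 2.57 and *Adamts1* by 3.47. *Timp2* and *Mmp2*, expressed by resting fibroblasts, fell by 0.55 and 0.6, the call of *Mmp2* being lost when any 1 of the 6 libraries was left out, and *Mmp9* (log2 fold change -0.81) was not called. Of the hyaluronan and provisional matrix genes, 8 of 16 rose and 2 fell (median 0.83), with *Tnfaip6* at 3.74, *Cd44* at 2.83, *Has1* at 2.79 and *Tnc* (tenascin C) at 1.69. Collagens pointed the other way, with 6 of 15 called lower, 1 higher and a median of -0.29. *Col3a1* measured 302, 342 and 309 CPM in naïve and 79.6, 85 and 89.9 CPM in IM3h libraries, and *Col1a1* 323, 324 and 352 CPM against 97.6, 149 and 123 CPM. *Col14a1* fell by 1.6, and *Col18a1* rose by 0.6, a call lost without naïve library 1.

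Enzymes of prostaglandin, leukotriene and nitric oxide synthesis had 2 of 15 called higher (13.3%) and 2 lower (13.3%), against 19.3% and 13.4% of all genes. *Ptgs2* (chromosome 1, 150100031 to 150108227), the inducible cyclooxygenase, went from 11.1, 9.21 and 9.54 CPM to 63.8, 80.4 and 64.9 CPM. *Ptges* (log2 fold change 1.18) and *Nos1* (-0.29) were not called, although *Ptges* was called higher without naïve library 3, at 2.03, and stood at 0.52 without IM3h library 1. *Nos2*, the inducible nitric oxide synthase, stood at 1.94, 2.1 and 0.72 CPM in naïve and 1.21, 1.23 and 0.126 CPM in IM3h libraries and was not called (edgeR adjusted p = 0.39). *Ptgis*, for prostacyclin synthesis, fell by 0.75.

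Growth factor genes rose in some families. Among ligands of the EGF receptor, *Areg* measured 0.0881, 0.808 and 0.36 CPM in naïve and 12.6, 11.6 and 13.1 CPM in IM3h libraries, *Hbegf* 3.79, 1.13 and 5.13 CPM against 90.3, 106 and 106 CPM, and *Ereg* rose by 2.84. *Egfr* rose by 1.21, and 5 of 10 genes of the list were called higher and none lower (median 0.85). Neurotrophic and vascular factors rose in 7 of 18 cases (median 0.41). *Gdnf* (chromosome 15, 7810846 to 7837575), a survival factor of enteric neurons, went from 11.8, 24.1 and 15.9 CPM to 82.6, 78.5 and 94.3 CPM, and *Vgf* rose by 2.75 and *Bdnf* by 1.55, the last not called without naïve library 3. *Gdf15*, a stress hormone of the TGF-beta family, rose from 0.518 ± 0.099 to 6.92 ± 2.06 CPM, and *Bmp2* by 1.2 on the log2 scale, while *Bmp4* and *Bmp7* fell by 0.66 and 1.67. *Bmp7* lost its call without naïve library 1 or 3 or IM3h library 1 or 3.

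Hormonal and nervous signals of surgery act through glucocorticoid and adrenergic receptors. Of 15 tested genes of the glucocorticoid list, 9 rose and 1 fell (median 2.24). Among those that rose, *Errfi1*, *Dusp1* and *Lcn2* also stand on lists above, and *Per1* on the clock list below. These counts are thus not separate from those. *Fkbp5* went from 10 ± 1.3 to 54.7 ± 6.21 CPM, *Per1* from 6.67 ± 2.15 to 30.7 ± 9.26 CPM and *Sgk1* from 4.97 ± 1.34 to 33.2 ± 9.51 CPM, whereas *Tsc22d3* (log2 fold change 0.19) and *Zbtb16* (0.58), which respond to glucocorticoids in many tissues, were not called. The gene that fell was the receptor itself, *Nr3c1*, from 72.8, 74.3 and 72 CPM to 45.9, 46.6 and 47 CPM. Clock genes rose in 8 of 17 cases (median 0.44), with *Nfil3* at 4.0 and *Per2* at 1.21, while *Nr1d1* (log2 fold change -0.2) was not called. Without naïve library 3 *Nfil3* stood at 5.11, and the call of *Per2* was lost without naïve library 1, naïve library 3 or IM3h library 2.

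In the adrenergic and cAMP list, 4 of 19 genes rose (21.1%) and 6 fell (31.6%), against 19.3% and 13.4% of all genes, with a median of -0.29. Those that fell included 3 receptor genes. *Adrb3* (chromosome 8, 27225776 to 27250616) measured 37, 32.6 and 38.1 CPM in naïve and 8.27, 3.36 and 6.17 CPM in IM3h libraries, *Adra2b* 6.96, 12.6 and 7.11 CPM against 1.76, 1.01 and 0.881 CPM, and *Adrb1* 19.6, 22.9 and 17.5 CPM against 9.71, 7.5 and 8.56 CPM. None of these 3 receptors overlapped between groups. The receptor genes *Adra2a* (log2 fold change 0.24) and *Adra1a* (-0.67) were not called, and *Adra2a* turned negative under other scalings. Of the 4 that rose, *Crem*, a repressor of the cAMP response, did so by 1.84, the phosphodiesterase *Pde4b* from 63.1 ± 4.41 to 625 ± 117 CPM and *Rgs16*, which shortens signals of G proteins, from 0.911 ± 0.604 to 24.7 ± 2.58 CPM. The scaffold *Akap12* rose by 1.48. *Rgs2*, of the same family as *Rgs16*, fell by 0.67. Of the purinergic genes, 2 of 12 rose (16.7%), *P2ry2* (2.37) and *P2ry6* (0.94), and 2 fell (16.7%), the ecto-nucleotidase *Nt5e* by 1.16 and *P2ry14* by 1.45. These shares are near those of all genes, and the calls of *P2ry6* and *P2ry14* depend on single libraries: *P2ry6* lost its call without naïve library 1 or 2 or IM3h library 1 or 2, and *P2ry14* without any 1 naïve library.

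Of the 30 genes of the smooth muscle contractile program, none rose and 7 fell (23.3%, against 13.4% of all genes). The median was -0.26, against 0.0 over all genes, and every fitted value was at or under 0. *Chrm2* (chromosome 6, 36388084 to 36528414), the most abundant muscarinic receptor of gut muscle, measured 372, 319.9 and 379.7 CPM in naïve and 109.9, 139.7 and 145 CPM in IM3h libraries. *Pln* (phospholamban), which slows calcium uptake, went from 137, 121 and 123 CPM to 40.9, 55.2 and 46.6 CPM. *Lmod1*, *Smtn* and *Kcnmb1* fell by 0.92, 0.75 and 0.61. *Myh11* (log2 fold change -0.1), *Cnn1* (-0.11) and *Des* (-0.13) were not called. Interstitial cells, which pace the muscle and pass on nerve signals, had 7 of 15 genes that fell (46.7%), 1 that rose and a median of -0.38. *Gucy1a1* and *Gucy1b1*, the subunits of the nitric oxide receptor, fell by 1.47 and 0.88, and *Kcnn3*, a potassium channel of Pdgfra-positive cells, by 1.28. *Kit* and its channel partner *Ano1* fell by 0.6 and 0.38, while *Kitl*, the ligand of KIT, rose by 0.44. *Ano1* lost its call without naïve library 1, and *Kitl* without naïve library 1 or 3. In such bulk samples, fewer cells of a type and less RNA per cell cannot be told apart.

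The mesothelium is the cell layer that covers the outer surface of the bowel, and its markers had the lowest median of the marker lists. Of 8 tested, 7 fell and none rose, with a median of -3.41. *Upk3b* (chromosome 5, 136038496 to 136046487) measured 29.1, 39 and 45.7 CPM in naïve and 2.76, 0.336 and 3.65 CPM in IM3h libraries, *Lrrn4* 17.8, 22 and 27.1 CPM against 2.43, 0.56 and 0.629 CPM, and *Msln* (mesothelin) 12.6, 18.6 and 14.5 CPM against 3.2, 0.112 and 2.64 CPM. The highest IM3h library was under the lowest naïve library for each of these 3. *Wt1*, the transcription factor of this layer, fell by 2.88. *Krt19*, which epithelium also expresses, was not called, at 28.4, 30.6 and 20.8 CPM in naïve and 39.1, 11.2 and 4.03 CPM in IM3h libraries. Over the alternative fits its log2 fold change went from -1.78 to -0.07, and it was called lower under some alternative. The whole list of 9 markers summed to 124 to 162 CPM in naïve and 13.3 to 53.9 CPM in IM3h libraries, a mean 5.36-fold lower. By library the IM3h sums were 53.9, 13.7 and 13.3 CPM, and *Krt19* made up 39.1 CPM of the first.

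The 12 largest falls, taken by the same rule as the rises, included 4 of these mesothelial markers, *Gpm6a*, *Lrrn4*, *Upk3b* and *Msln*. The other 8 were *Slpi*, *Bvht*, *Igfbp6*, *Rspo1*, *Fmo2*, *Adra2b*, *Tet1* and *Chst12*. *Slpi*, a protease inhibitor, stood at 75.6, 70.6 and 121 CPM in naïve and 13.3, 3.13 and 7.55 CPM in IM3h libraries, and *Igfbp6*, which binds insulin-like growth factors, at 40.7, 55.3 and 55.1 CPM against 7.5, 3.58 and 6.42 CPM. The WNT agonist *Rspo1* fell by 3.09, and the DNA demethylase *Tet1* by 2.69. In the complement list, 6 of 16 genes fell and 2 rose (median -0.47). *C3* (chromosome 17, 57203970 to 57228136), the central component, measured 176, 203 and 216 CPM in naïve and 55, 17.8 and 38.3 CPM in IM3h libraries, and *Cfb* and *C2* fell by 1.5 and 2.29. Those that rose were the receptors *C5ar1* (2.1) and *C3ar1* (1.28) of leukocytes. In *C3*, *C2* and *Msln* alike, IM3h library 2 was the lowest. The part of the mesothelium in the falls of *C3*, *Slpi*, *Igfbp6* and *Rspo1* was not tested.

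**Figure D4:**
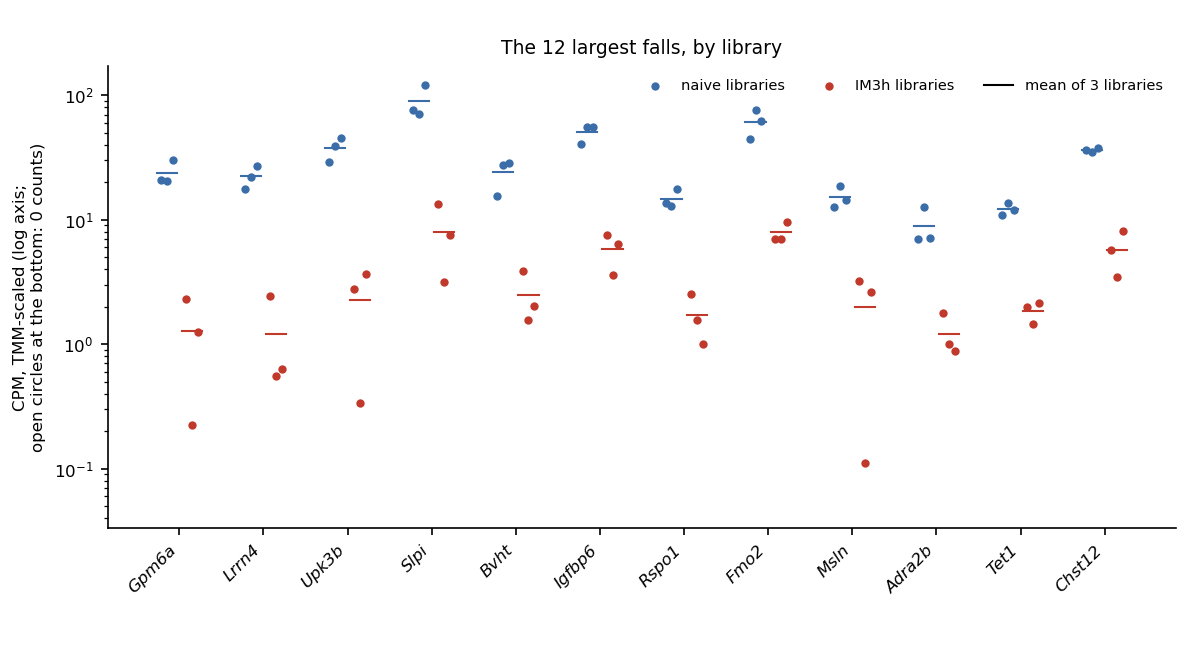
Level of the 12 genes with the largest falls in each naïve (blue) and IM3h (red) library, in CPM on a log axis, with the group mean as a bar. The genes were taken from those whose groups do not overlap. For *Gpm6a*, *Upk3b* and *Msln* IM3h library 2 lies well under the other two.

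Enteric glia are the cells that the study addresses, and the glial genes of the whole tissue moved both ways. *Gfap* (chromosome 11, 102887336 to 102900912), the intermediate filament of reactive glia, went from 8.28, 9.05 and 7.29 CPM to 30.2, 33.8 and 26.7 CPM, a log2 fold change of 1.89 with a standard error of 0.16 (edgeR adjusted p = 1.90e-05). *Nes* (nestin) measured 5.99, 6.3 and 5.94 CPM in naïve and 35.9, 41.8 and 40.6 CPM in IM3h libraries. *Vim* and *Sox10* rose by 0.88 and 0.68, whereas *S100b* fell by 0.5. The calls of *Sox10* and *S100b* were lost without naïve library 3 (log2 fold changes 0.55 and -0.50), and all 3 were lost without scaling for library size (0.71 for *Vim*, 0.53 for *Sox10* and -0.66 for *S100b*). *Erbb3*, *Cdh19* and *Foxd3*, which mark the lineage, were not called, at log2 fold changes of 0.37, -0.42 and -0.46. Of 7 glial markers 2 rose and 2 fell (median -0.42), and their summed level was 92.8 to 106 CPM in naïve and 99.4 to 112 CPM in IM3h libraries. Other cells can express *Cd44*, *Vim*, *Nes* and *Glul*, so the list of 13 gliosis genes, with 8 called higher and 2 lower (median 0.84), is not specific to glia.

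The list of acute enteric gliosis from the study joins gliosis genes known from earlier work with genes that were strongly induced in *RiboTag* libraries of the series, which come from ribosomes of glia. The copy used here holds 242 genes and may lack an entry. Input and *RiboTag* libraries may share mice, so the counts here are not independent evidence of its direction. Here 214 could be tested, 170 rose, 13 fell and the median was 2.11. Among the members that fell were the mesothelial marker *Lrrn4*, *Rspo1*, *C3*, the matrix gene *Dcn* and the glial potassium channel *Kcnj10*, which went from 2.73, 2.26 and 3.42 CPM to 0.331, 0.783 and 0.378 CPM. *Gja1* (log2 fold change -0.25) was not called. Many members also stand on the lists of immediate early genes and cytokines above, so these counts are not separate from those.

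Of 8 neuronal markers none rose and 1 fell (12.5%, against 13.4% of all genes), with a median of -0.12. *Elavl4* (log2 fold change -0.28), *Uchl1* (-0.12) and *Snap25* (-0.13) were not called. In 3 of the 8, every IM3h library was under every naïve library, as in 22.7% of all genes. The summed level of the 8 neuronal markers was 499 to 506 CPM in naïve and 421 to 482 CPM in IM3h libraries. Among 25 tested genes of enteric transmission, 3 rose and 3 fell (12% each, under the 19.3% and 13.4% of all genes), with a median of -0.14. The neuropeptide genes *Vip* and *Gal* rose by 0.83 and 0.66. *Vipr1*, a receptor of VIP, rose by 2.14, although it was not called in every alternative fit (1.45 to 2.44). The VIP receptor *Vipr2*, which relaxes gut muscle, fell from 3.61, 6.3 and 5.31 CPM to 0.772, 0.448 and 2.39 CPM, and the neurokinin receptor *Tacr3* by 1.96, a call lost without naïve library 1 or 3 or IM3h library 1 or 2. *Chat*, *Nos1* and *Tac1*, genes of the main motor neurons, had log2 fold changes of -0.53, -0.29 and 0.23 and were not called.

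Markers of neutrophils and monocytes were higher at IM3h, at low levels. Of 8 tested neutrophil markers 7 rose, with a median of 4.8, or 4.57 when *Clec4d*, at 0 in naïve libraries, is set to its lower bound. The marker not called was *Mmp9* (log2 fold change -0.81). *Cxcr2*, *Csf3r*, *Retnlg* and *Cd177* had too few counts for the test. *S100a9* measured 0.0881, 0.162 and 0.27 CPM in naïve and 10.7, 11.3 and 9.06 CPM in IM3h libraries, and *S100a8* had 2 counts over the naïve libraries against 172 at IM3h, a ratio of 95 (95% counting interval 25.9 to 791). The 13 neutrophil markers of the table summed to 3.44 to 5.67 CPM in naïve and 28.7 to 38.8 CPM in IM3h libraries. *Ly6g*, *Mpo* and *Elane* were not in the table and *Ngp* had no count in any of the 6 libraries. Of 6 tested monocyte markers all 6 rose (median 1.38), among them *Chil3*, with 1 count in naïve and 45 in IM3h libraries, a ratio of 49.7 (95% counting interval 8.48 to 2010), *Fcgr1* (1.58) and *Ccr2* (0.71). *Ccr2* lost its call without naïve library 1 or 3 or IM3h library 1 or 2.

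Resident macrophages, the main sentinels of the muscle coat, had no marker that rose, against 19.3% of all genes. Of their 11 markers 3 fell (27.3%, against 13.4% of all genes), with a median of -0.23. *Cx3cr1*, the fractalkine receptor, stood at 13.7, 19.1 and 14.6 CPM in naïve and 3.86, 3.47 and 3.65 CPM in IM3h libraries, and *Folr2* at 2.91, 2.1 and 2.88 CPM against 0.11, 0.224 and 1.01 CPM, a fall not called without IM3h library 2. The remaining fall was that of *Csf1r*, named above, a call lost without naïve library 1 or 2 or IM3h library 1 or 3. *Adgre1* (log2 fold change -0.28), *Mrc1* (-0.13) and the complement gene *C1qa* (-0.23) were not called. MHC class II genes rose in 7 of 10 cases by small steps (median 0.54), with *Cd74* at 0.66 and the co-stimulator *Cd86* at 1.55. Each of the 7 lost its call under some of the alternative fits. *Cd74* lost its call without naïve library 1 or 3 or IM3h library 1 or 2, and *Cd86* without any 1 library but IM3h library 1. Interferon response genes rose in 11 of 25 cases and fell in none (median 0.64). *Gbp2* (chromosome 3, 142620602 to 142638008), a guanylate-binding protein, went from 34.3, 34.4 and 45.1 CPM to 306, 373 and 313 CPM, *Gbp5* rose by 3.03 and *Isg15* by 1.67, while *Ifnb1* was not in the table and *Mx1* had too few counts for the test.

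Summed levels of markers of neighbouring tissues overlapped between the groups. Epithelial markers summed to 1090, 747 and 294 CPM in naïve and 2610, 1060 and 456 CPM in IM3h libraries. All 13 tested had log2 fold changes above 0 (median 1.24), and 3 (23.1%, against 19.3% of all genes) were called higher, *Sis*, *Apoa4* and *Fabp1*, at log2 fold changes of 1.48, 1.39 and 1.37. Without IM3h library 1 *Sis* stood at 0.87 and was not called, and its call was also lost without naïve library 2, naïve library 3 or IM3h library 2. Adipocyte markers summed to 433 to 568 CPM in naïve and 332 to 752 CPM in IM3h libraries, with none of 7 called, and pancreatic markers to 2.79 to 40.2 and 7.5 to 36.8 CPM. Hemoglobin and *Alas2* summed to 209 to 843 CPM in naïve and 376 to 1350 CPM in IM3h libraries. Mast cell markers summed to under 1 CPM in every library, with 0 of 7 having enough counts for the test. Markers of T, B and plasma cells summed to 12.4 to 31.7 CPM in naïve and 10.1 to 24.4 CPM in IM3h libraries, with 2 of 10 tested and neither called. Their part in the calls was not tested. Genes of cholesterol and fatty acid synthesis, a list outside inflammation, had 1 of 20 called higher (5%, against 19.3% of all genes). The 2 called lower (10%, against 13.4% of all genes) were *Srebf1* (-1.42) and *Scd2* (-1.2).

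**Figure D5:**
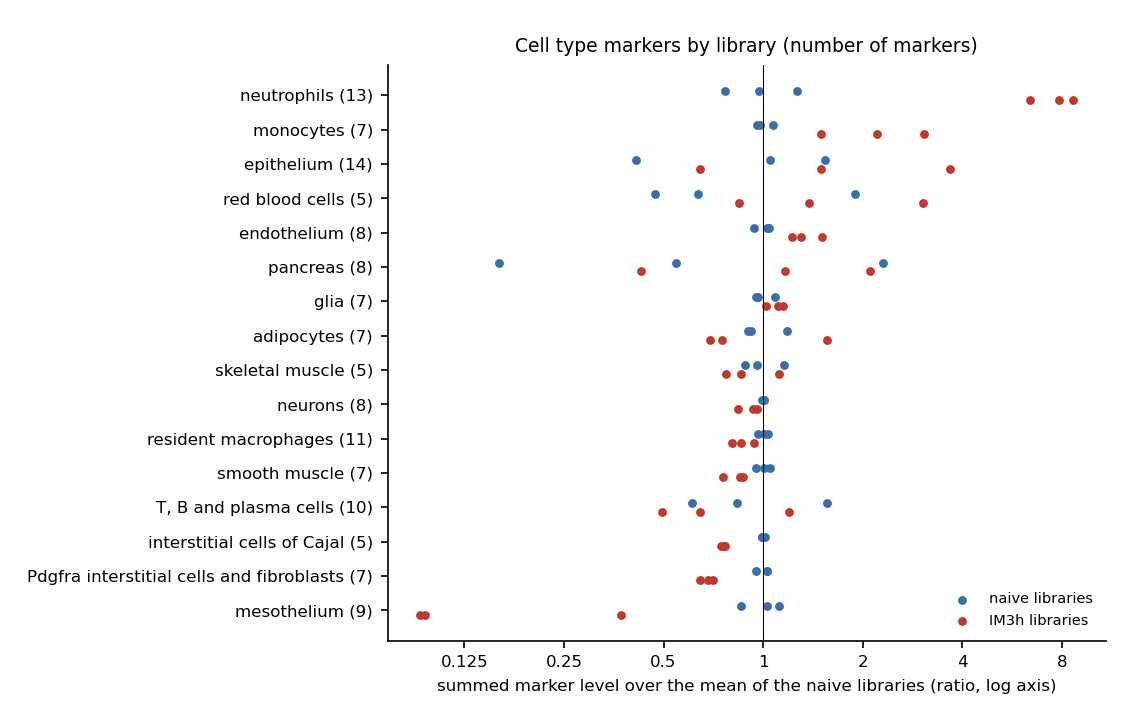
Summed level of the markers of each cell type in each naïve (blue) and IM3h (red) library, divided by the mean of the naïve libraries, on a log axis with the number of markers in parentheses. Mesothelial markers lie under and neutrophil markers above the naïve range in every IM3h library, while epithelial, adipocyte and pancreatic markers overlap.

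Later *ME* libraries, at 24 h and 72 h, give the course of some of these genes. They carry another mouse line by their labels and a lower share of AY036118 (1.33% to 6.5%), so the values are given side by side with no test, after scaling over all 14 *ME* libraries. *Fosl1* stood at 105 to 120.0 CPM at 3 h and 0 to 0.455 CPM at 24 h and had no count in any library at 72 h, and *Fosb* at 290.0 to 513, 1.83 to 4.09 and 1.73 to 3.31 CPM. *Cxcl1* measured 42.5 to 71.9, 7.91 to 34.6 and 1.05 to 3.44 CPM, and *Il6* 5.91 to 9.13, 3.2 to 11.1 and 0.454 to 1.17 CPM. For *Fosl1*, *Fosb* and *Cxcl1* every 3 h library was above every later library, while *Il6* at 24 h overlapped with 3 h. *Ccr2* was higher later, at 14.1 to 20 CPM at 3 h, 134 to 138 CPM at 24 h and 69.3 to 85.8 CPM at 72 h, as was *Col1a1*, at 124 to 196, 262 to 731 and 1670 to 1930 CPM. *Upk3b*, from the mesothelium, was at 39.9 to 61.4 CPM in naïve libraries and at 0.442 to 4.81, 1.7 to 25.7 and 8.14 to 28.8 CPM at the 3 times. *Chrm2*, at 425 to 510.0 CPM in naïve libraries, measured 140.0 to 191, 129 to 198 and 50 to 66.2 CPM.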

How the data were processed

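The libraries were QuantSeq 3′ libraries of total RNA. The authors trimmed and aligned reads to mm10 with cutadapt and STAR inside Partek Flow, and the deposited values are estimated counts per gene, of which 31.0% are not whole. Whether counting used the strand is not given in the sources used here. Lines of the table state the group of a library but match no sample's title, so libraries were assigned to groups only and their numbers are names. Counts were rounded and tested with edgeR (4.0.16, R 4.3.3): low genes were removed with filterByExpr, libraries were scaled by TMM, and a quasi-likelihood test compared 3 IM3h with 3 naïve libraries, with a call at a Benjamini-Hochberg adjusted p under 0.05. Floors (3 counts per library) and 95% counting intervals (exact, Clopper-Pearson) cover counting error only. Named genes are members of 39 gene lists and 17 marker lists, with those of largest change first in each list and defining members that were not called, and the 12 largest rises and falls among genes with non-overlapping libraries and a mean of at least 5 CPM, leaving out predicted genes and pseudogenes. The members and lists were chosen with earlier results of these data known. Coordinates are from GENCODE vM21 (GRCm38) and promoters from RefSeq (GRCm38.p6). The alternatives were DESeq2 (1.42.0), other scalings, filters and designs, and leaving out each library. Those with AY036118 left out were added after seeing the data. The code was tested on simulated data. Some members of the lists are counted in the totals and are not reported here by name.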

Additional observations from a re-analysis of the deposited data

How the results depend on the processing

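The scaling set how many genes were called. Against 2962 higher and 2058 lower with TMM, there were 1249 and 885 without scaling for library size, 1742 and 3391 with library totals alone, and 1578 and 5364 with scaling by *Actb*, *Hsp90ab1* and *Rplp1*. Library totals without AY036118 gave 2104 and 3722, and the study's rule 1739 and 1095. Leaving out 1 library gave 2180 to 2766 higher and 1545 to 1744 lower, and DESeq2 2784 and 1808. No gene called with TMM was called in the other direction in any of the 17 alternatives fitted anew. The counts of named genes that follow leave out *Mcm2*, *Mcm3*, *Mcm6*, *Mcm7* and *Vipr1*. Among 4486 comparisons of a named gene with an alternative, 191 lost the call and 18 changed sign, all of them for genes that were not called. Of 221 named genes that were called, 27 lost the call when 1 library was left out: *Acta2*, *Angpt2*, *Ano1*, *Aurka*, *Bdnf*, *Bmp7*, *Ccr2*, *Cd74*, *Cd86*, *Clcf1*, *Col18a1*, *Csf1r*, *Cxcl12*, *Folr2*, *Hp*, *Il18*, *Kitl*, *Mki67*, *Mmp2*, *P2ry14*, *P2ry6*, *Per2*, *S100b*, *Sis*, *Sox10*, *Tacr3* and *Tfpi*. Leaving out naïve library 1, 2 or 3 lost 21, 8 or 19 of them and moved 11, 5 or 15 of the 221 folds by over 1.5 times, and leaving out IM3h library 1, 2 or 3 lost 13, 14 or 7. Without IM3h library 1 the falls of *Gpm6a* (-5.03), *Lrrn4* (-5.19), *Slpi* (-4.07), *C2* (-2.94) and *Klf15* (-2.35) were over 1.5 times larger as folds, and without IM3h library 3 those of *Folr2* (-3.89) and *Vipr2* (-3.01).

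Scaling by the 3 genes turned the sign of *Erbb3* (-0.04), *Adra2a* (-0.18), *Il33* (-0.23), *Tac1* (-0.18) and *Tsc22d3* (-0.21), and of the list medians of endothelial adhesion (-0.03), activin and BMP genes (-0.14), endothelium (-0.22) and adipocytes (-0.38). With library totals alone, *Adra2a* (-0.03), *Il33* (-0.10), *Tac1* (-0.04), *Tsc22d3* (-0.05), endothelium (-0.06) and adipocytes (-0.26) turned, and without AY036118 in the totals *Il33* (-0.03), *Tsc22d3* (-0.02), activin and BMP genes (-0.09), endothelium (-0.03) and adipocytes (-0.19). The adipocyte median was also -0.16 without scaling, -0.02 with the stricter filter and -0.03 with all 14 *ME* libraries. Leaving out 1 library gave values on both sides of 0 for *Il33* (-0.17 to 0.47), *Srf* (-1.16 to 0.20), *Tsc22d3* (-0.05 to 0.43) and *Myh11* (-0.23 to 0.05), and for the medians of adipocytes (-0.46 to 0.19), pancreas (-0.12 to 2.03), T, B and plasma cells (-0.38 to 0.16), cholesterol synthesis (-0.28 to 0.16) and skeletal muscle (-0.33 to 0.01). The cause was not tested.

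No paired analysis was possible because the names of the libraries in the table carry no replicate number. Low genes rest on few counts.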
